A study of Homo sapiens with 49 samples.

Results

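Raising ethinyl estradiol (EE) from 3 to 10 pM was examined in Ishikawa cells with the 12 arrays of these concentrations, out of 49 arrays in the series. The 6 arrays titled 10 pM were set against the 6 titled 3 pM, with the replicate number as a block, and the comparison was repeated without replicate 6, because the 3 pM array of that number showed a bias toward the 3′ end of transcripts. Ishikawa is an established line from a human uterine adenocarcinoma, so every group comes from 1 tumour-derived epithelial line. Cells received EE, a synthetic estrogen, or the ethanol vehicle for 72 h at 0.1% ethanol in all groups, which were vehicle (6 arrays) and EE at 0.1 pM (6), 0.3 pM (7), 1, 3, 10, 100 and 1000 pM (6 each). RNA was read on Affymetrix HT HG-U133 Plus PM arrays. The question was which transcripts still move within this single step of the concentration series, and how that step compares with its neighbours.

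Estrogens bind the receptors ESR1 and ESR2, ligand-activated transcription factors that act at estrogen response elements or through other DNA-bound factors such as AP-1. In the endometrium, the lining of the uterus, estrogen drives epithelial growth in the first part of the menstrual cycle and induces the progesterone receptor, which prepares the tissue for progesterone. Alkaline phosphatase activity is a long-used readout of estrogen action in Ishikawa cells.

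The 12 arrays had median log2 values of 2.95 to 3.03, and 38.2% to 39.4% of probe sets lay above a log2 level of 4, the floor used here. On 3 pM replicate 6 the beta-actin 3′ control probe set exceeded the 5′ one by 2.75 (log2), against 0.81 to 1.55 on the other 11 arrays, and the GAPDH difference was 0.50 against −0.21 to 0.08. Its genes deviated from the group mean with an SD of 0.347, against 0.122 to 0.158 on the others. All 15 epithelial markers on the list used (CDH1, EPCAM and keratins among them) were above the floor on all 12 arrays. None of 12 measured immune markers was, and 1 of 8 endothelial markers was (EGFL7). Of 11 stromal markers 4 were (COL1A1, COL1A2, COL3A1, FBN1), with DCN, LUM, PDGFRA and PDGFRB under it throughout, and the summed linear level of the 11 was 642.5 to 809.8 at 10 pM and 721.6 to 944.8 at 3 pM. Their part in the results was not tested. Whether replicates came from separate cultures is not stated in the labels, and the p-values then cover the spread among these arrays alone, possibly technical. In bulk RNA fewer cells of a kind and less RNA per cell cannot be told apart.

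Across 11075 tested genes, 18 (0.163%) passed the threshold between 10 and 3 pM (limma, Benjamini-Hochberg adjusted p under 0.05), and 16 (0.144%) rose while 2 (0.0181%) fell. At an unadjusted p under 0.05 there were 523 genes (4.72%). All 18 moved the same way in 6 of 6 pairs of equal replicate number. The rises ran from 1.20-fold to 2.48-fold, and 3 genes reached at least 2-fold. For 12 of the 16 the lowest 10 pM array lay above the highest 3 pM array, a separation that 17 of all tested genes (0.153%) showed upward and 13 (0.117%) downward. Without replicate 6, which drops both arrays of that number, 77 genes (0.695%) passed, 45 higher (0.406%) and 32 lower (0.289%), and the 18 were among them. Leaving out replicates 1, 2, 3, 4 and 5 in turn left 7, 8, 6, 10 and 6 genes. PGR, OLFM1, ALPG, SLCO2A1, ANO1 and G0S2 passed in each of these fits, and the other 12 lost their call in at least 1. Without the block 11 genes passed, 9 of them among the 18.

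The largest rise was that of PGR, the progesterone receptor and a classical estrogen target. Its log2 level was 6.97, 7.07, 7.10, 7.20, 6.54 and 6.77 in replicates 1 to 6 at 10 pM, against 5.60, 5.75, 5.87, 6.04, 5.52 and 5.01 at 3 pM. Every 10 pM array was above every 3 pM array, and the lowest 3 pM value came from replicate 6. The change was 2.48-fold (log2 change 1.31 ± 0.09 SE, n = 6 pairs, limma adjusted p = 8.72e-05) and stood at 1.22 ± 0.07 without replicate 6 (n = 5 pairs). A dimmer probe set for PGR, under the floor in both groups on average (2.73 at 10 pM and 2.31 at 3 pM), differed by 0.43.

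GREB1, a chromatin-bound partner of the estrogen receptor, ranged from 6.11 to 6.45 (median 6.32) at 10 pM and from 5.16 to 5.83 (median 5.73) at 3 pM. It rose 1.60-fold (0.68 ± 0.10 SE, adjusted p = 0.0171). NRIP1, a corepressor that binds ligand-bound nuclear receptors, ranged from 8.03 to 8.35 (median 8.23) at 10 pM and from 7.28 to 7.91 (median 7.83) at 3 pM, and rose 1.38-fold (0.46 ± 0.06, adjusted p = 0.0153). In both genes the groups did not overlap, and the lowest 3 pM array was replicate 6. Without that replicate the log2 changes were 0.60 ± 0.08 for GREB1 and 0.40 ± 0.05 for NRIP1. The receptor ESR1 itself did not pass, at 8.23 ± 0.10 at 10 pM and 8.31 ± 0.08 at 3 pM (SD, n = 6 each, log2 change −0.09 ± 0.05 SE, adjusted p = 0.982). All 6 probe sets of ESR2 were under the floor on all 12 arrays, with 2.71 as the highest value.

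**Figure D1:**
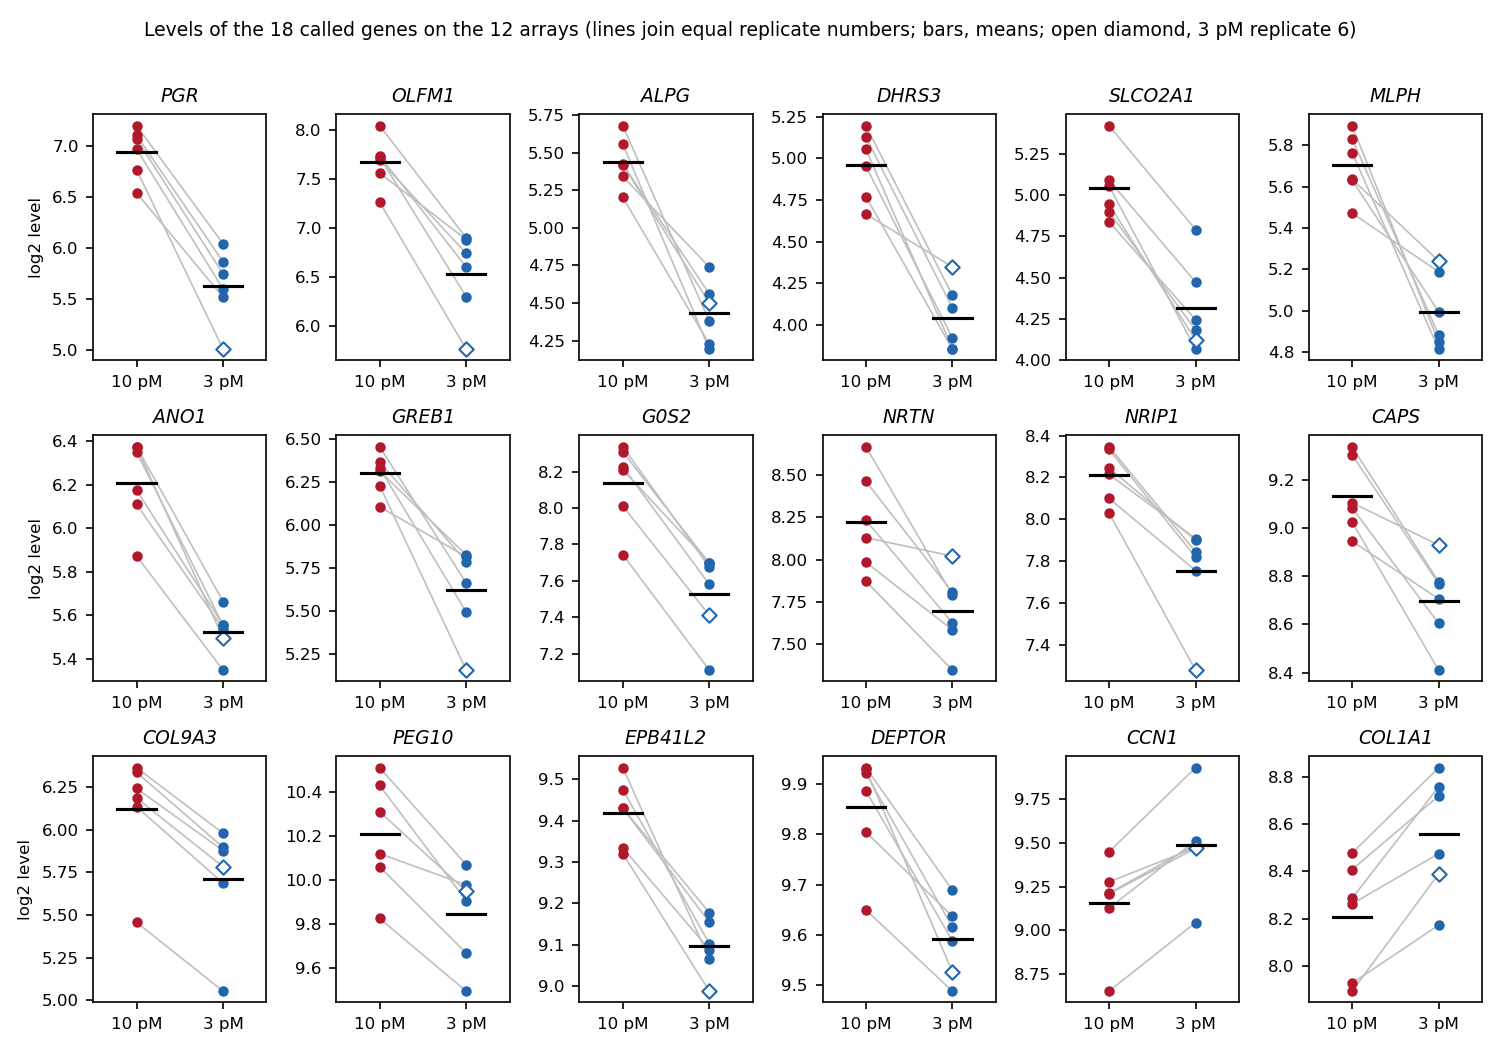
Log2 levels of the 18 called genes, 1 panel per gene, with the 10 pM arrays (red) left of the 3 pM arrays (blue). Lines join arrays of equal replicate number, bars are means of 6 arrays and the open diamond is 3 pM replicate 6. Each line has the same slope direction within a panel. The scale differs between panels.

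The called genes of phosphate, retinoid and lipid metabolism were ALPG, DHRS3 and G0S2. ALPG, an alkaline phosphatase of the placental type, ranged from 5.20 to 5.68 (median 5.42) at 10 pM and from 4.19 to 4.74 (median 4.44) at 3 pM, with no overlap. It rose 2.01-fold (1.01 ± 0.11 SE, adjusted p = 0.00217), and the change without replicate 6 was 1.02 ± 0.11. Its 3 pM mean of 4.43 lay near the floor, so the size of the rise is uncertain. ALPG is nearly identical in sequence to ALPP, the placental alkaline phosphatase, so probes may not separate the copies. The probe set annotated to ALPP alone was under the floor, at 2.45 ± 0.11 at 10 pM and 2.34 ± 0.20 at 3 pM (SD, n = 6 each).

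DHRS3, which reduces retinaldehyde to retinol, ranged from 4.67 to 5.20 (median 5.01) at 10 pM and from 3.85 to 4.35 (median 4.01) at 3 pM. It was at or under the floor on 3 of the 6 arrays at 3 pM, so its rise of 1.89-fold (0.92 ± 0.11 SE, adjusted p = 0.0073) is uncertain in size, and without replicate 6 it was 1.04 ± 0.10. G0S2, an inhibitor of the adipose triglyceride lipase, ranged from 7.74 to 8.34 (median 8.22) at 10 pM and from 7.11 to 7.70 (median 7.63) at 3 pM. Its 6 pair differences were alike, from 0.51 to 0.66, and the rise was 1.53-fold (0.61 ± 0.05, adjusted p = 2.67e-04). It was 0.61 ± 0.05 without replicate 6.

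3 called genes encode transport proteins. SLCO2A1, the prostaglandin transporter, ranged from 4.84 to 5.42 (median 5.00) at 10 pM and from 4.06 to 4.79 (median 4.21) at 3 pM, a 1.66-fold rise (0.73 ± 0.09 SE, adjusted p = 0.00575). ANO1, a chloride channel opened by calcium, ranged from 5.87 to 6.38 (median 6.26) at 10 pM and from 5.35 to 5.66 (median 5.55) at 3 pM, a 1.61-fold rise (0.68 ± 0.07, adjusted p = 0.00217). MLPH, melanophilin, which links RAB27 vesicles to myosin V motors, ranged from 5.47 to 5.90 (median 5.70) at 10 pM and from 4.81 to 5.24 (median 4.94) at 3 pM, a 1.64-fold rise (0.71 ± 0.11, adjusted p = 0.0273). None of these 3 genes had overlapping groups. The 3 pM mean of SLCO2A1 was 4.31, near the floor, so the size of its rise is uncertain. Without replicate 6 the log2 changes were 0.71 ± 0.09 for SLCO2A1, 0.65 ± 0.07 for ANO1 and 0.77 ± 0.10 for MLPH.

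Among secreted proteins, OLFM1, an olfactomedin-domain glycoprotein, had levels of 8.05, 7.70, 7.74, 7.56, 7.72 and 7.27 in replicates 1 to 6 at 10 pM, against 6.90, 6.74, 6.60, 6.88, 6.30 and 5.77 at 3 pM. Replicate 6 was the lowest in both groups, and the groups did not overlap. OLFM1 rose 2.20-fold (1.14 ± 0.10 SE, adjusted p = 3.00e-04), and 1.07 ± 0.07 on the log2 scale without replicate 6. Another probe set for OLFM1, with a mean of 6.17 at 10 pM and 5.13 at 3 pM, was higher in 6 of 6 pairs by 1.04. NRTN, neurturin, a ligand of the GDNF family, ranged from 7.87 to 8.67 (median 8.18) at 10 pM and from 7.35 to 8.02 (median 7.71) at 3 pM. Its groups overlapped, and the pairs differed by 0.11 to 0.88, for a rise of 1.44-fold (0.53 ± 0.08, adjusted p = 0.0276). The smallest pair difference of NRTN was that of replicate 6, without which the change was 0.61 ± 0.06.

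The other rises were smaller. CAPS, the calcium-binding protein calcyphosine, rose 1.35-fold (0.43 ± 0.06 SE, adjusted p = 0.0171), and its other entering probe sets differed by 0.57 and 0.54, each in 6 of 6 pairs. COL9A3, a chain of type IX collagen, rose 1.33-fold with pair differences within 0.36 to 0.45 although replicate 4 was low in both groups, at 5.46 at 10 pM and 5.05 at 3 pM. PEG10, an imprinted gene derived from a retrotransposon, rose 1.29-fold. EPB41L2, a membrane skeleton protein, and DEPTOR, an inhibitor of the mTOR kinase, rose 1.25-fold and 1.20-fold, and these genes are named after their values were seen. Levels overlapped between 10 and 3 pM for COL9A3, PEG10 and DEPTOR, and did not for CAPS and EPB41L2. Over the called genes, all 10 further entering probe sets, which belonged to 8 of them, differed in the direction of the main one.

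The falls were COL1A1 and CCN1. COL1A1, the alpha-1 chain of type I collagen, had levels of 8.48, 8.41, 8.26, 8.29, 7.93 and 7.89 in replicates 1 to 6 at 10 pM, against 8.84, 8.72, 8.48, 8.76, 8.17 and 8.39 at 3 pM. CCN1, a matricellular protein and a standard target of YAP, had 9.21, 8.65, 9.21, 9.13, 9.45 and 9.28 at 10 pM, against 9.47, 9.05, 9.49, 9.51, 9.93 and 9.47 at 3 pM. In both genes each 10 pM array was below its own 3 pM partner while the groups overlapped, so these calls rest on the pairing. COL1A1 fell 1.28-fold (−0.35 ± 0.05 SE, adjusted p = 0.025) and CCN1 1.26-fold (−0.33 ± 0.05, adjusted p = 0.0162). Without replicate 6 the log2 changes were −0.32 ± 0.04 for COL1A1 and −0.36 ± 0.04 for CCN1. Neither fall passed without the block, with any of replicates 1 to 5 left out, or with the mean of all entering probe sets. Another entering probe set was lower in 5 of 6 pairs for each gene. For COL1A1 it differed by −0.12 (means of 4.71 at 10 pM and 4.83 at 3 pM), and for CCN1 by −0.26. Dimmer probe sets for COL1A1, under the floor on average, differed by −0.07, 0.17 and −0.17.

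To describe what the called genes share beyond their change, promoters were searched for estrogen response elements in RefSeq windows of GRCh38.p14, which run from 250 bases before to 50 bases after a transcript start. The motifs were the full element GGTCANNNTGACC, a palindrome, and on both strands its 5-letter arms GGTCA and TGACC, which also lie inside the full element. Windows were available for 11 of the 18 genes (23 windows). None held the full element, which 0.0148% of the windows of tested genes and 0.057% of all 35116 windows hold. At such shares 23 windows would hardly hold it in any case, so this search could not set the called genes apart. An arm was in 8 (34.8%), against 34.2% of the windows of tested genes and 37.4% of all windows. Of the 77 genes called without replicate 6, 62 had windows (106 windows), with an arm in 33% of windows. They held 0 full elements, and 106 windows are also too few to tell. Counted by gene, an arm was found for 6 of the 11 (54.5%) and for 25 of the 62 called without replicate 6 (40.3%). The share was 41.7% of tested genes with windows and 42.6% of all genes with windows. Windows of PGR, ALPG and G0S2 are shown, with the arms in capitals, because these genes rose in the step and hold an arm near a start. The PGR window is chr11:101129028-101129327 on the minus strand with TGACC at −166. The ALPG window is chr2:232406594-232406893 on the plus strand with GGTCA at −95 and −77, and the G0S2 window is chr1:209675162-209675461 on the plus strand with TGACC at −81. Positions count from the transcript start, and each line runs 5′ to 3′ along the gene.
PGR: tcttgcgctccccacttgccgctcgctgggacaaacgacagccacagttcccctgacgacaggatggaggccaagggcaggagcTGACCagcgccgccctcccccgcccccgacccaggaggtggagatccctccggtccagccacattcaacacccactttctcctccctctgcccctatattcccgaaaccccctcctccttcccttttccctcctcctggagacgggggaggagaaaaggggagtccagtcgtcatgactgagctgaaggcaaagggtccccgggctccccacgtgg
ALPG: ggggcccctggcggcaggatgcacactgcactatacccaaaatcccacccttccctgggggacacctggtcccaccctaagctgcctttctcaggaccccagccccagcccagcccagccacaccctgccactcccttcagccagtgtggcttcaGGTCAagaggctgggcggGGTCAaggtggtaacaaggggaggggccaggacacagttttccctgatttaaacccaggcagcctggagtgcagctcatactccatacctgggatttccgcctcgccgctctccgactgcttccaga
G0S2: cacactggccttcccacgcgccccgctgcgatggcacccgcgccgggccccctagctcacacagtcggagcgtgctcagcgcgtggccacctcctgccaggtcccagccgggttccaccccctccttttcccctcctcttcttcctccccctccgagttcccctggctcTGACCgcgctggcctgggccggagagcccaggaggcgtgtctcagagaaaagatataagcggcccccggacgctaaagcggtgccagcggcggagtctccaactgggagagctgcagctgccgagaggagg
A match is a string of letters and not a binding site, and the windows say nothing of elements farther away.

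The 59 genes that passed only without replicate 6 were 29 higher and 30 lower, with a median size of 0.26 on the log2 scale. In 10 of the 30 that are named by the same rule, the pair of replicate 6 ran against the other 5. GDPD5, a glycerophosphodiester phosphodiesterase, had 6.14, 5.82, 5.85, 5.97, 6.14 and 6.01 in replicates 1 to 6 at 10 pM, against 5.60, 5.23, 5.44, 5.33, 5.41 and 6.32 at 3 pM. The 3 pM array of replicate 6 was the highest of the 12, and the log2 change was 0.58 ± 0.07 SE without it (n = 5 pairs, adjusted p = 1.33e-04) against 0.44 ± 0.12 with all pairs (adjusted p = 0.533). LAMB3, a laminin chain, behaved in the same way at 7.53 on that array, against 6.18 to 6.46 on the other 3 pM arrays and 6.49 to 7.08 at 10 pM.

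Others of the 59 moved the same way in the 6th pair. ANPEP, a membrane aminopeptidase, was higher by 0.64 ± 0.13 SE with 5 pairs (adjusted p = 0.0176) and by 0.61 ± 0.14 with 6 (adjusted p = 0.238). TGFA, a ligand of the EGF receptor, was higher by 0.26 ± 0.03 with 5 pairs (adjusted p = 1.97e-04) and by 0.32 ± 0.06 with 6 (adjusted p = 0.0567), and its lowest 10 pM level of 9.89 was above its highest 3 pM level of 9.75. HES2, a transcriptional repressor, was higher by 0.48 ± 0.05 with 5 pairs and 0.40 ± 0.08 with 6. SCGB2A1, a secretoglobin, was higher by 0.35 ± 0.07 with either number. The zinc-finger factor EGR3 and the natriuretic peptide NPPC passed with 5 pairs (adjusted p = 0.0137 and 0.0244), but all 3 pM arrays were under the floor and so were 5 of 6 10 pM arrays of EGR3 and all of NPPC, so no fold is given. Their mean log2 levels were 3.29 at 10 pM and 2.48 at 3 pM for EGR3, and 3.43 at 10 pM and 2.61 at 3 pM for NPPC. Both needed arrays of other concentrations to enter the tested genes, so their calls carry little weight wherever they are counted.

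Lower genes with 5 pairs included signalling genes. JUN, a subunit of AP-1, had 6.86, 6.36, 6.73, 6.68, 6.84 and 6.77 in replicates 1 to 6 at 10 pM, against 7.17, 6.86, 6.94, 7.08, 7.12 and 7.16 at 3 pM. Each 10 pM array was below each 3 pM array, as for 0.117% of all tested genes. The margin was narrow, with 6.858 as the highest level at 10 pM and 6.861 as the lowest at 3 pM. The change of JUN was −0.34 ± 0.06 SE with 5 pairs (adjusted p = 0.00456) and −0.35 ± 0.06 with 6 (adjusted p = 0.0589). JAG1, a Notch ligand, also had no overlap, at 9.40 to 9.66 at 10 pM and 9.72 to 9.93 at 3 pM, a change of −0.24 ± 0.04 with 5 pairs (adjusted p = 0.00179). CCN2, connective tissue growth factor, changed by −0.28 ± 0.05 with 5 pairs (adjusted p = 0.00379) and −0.22 ± 0.07 with 6 (adjusted p = 0.733). IGFBP5, an IGF-binding protein, changed by −0.27 ± 0.04 with 5 pairs (adjusted p = 0.00127) and −0.32 ± 0.05 with 6 (adjusted p = 0.0538). FGFR2 and NRG1, a growth factor receptor and an ERBB ligand, changed by −0.30 ± 0.06 and −0.28 ± 0.06 with 5 pairs. RAD51B, a recombination protein, had the largest change of the lower genes (−0.59 ± 0.11 with 5 pairs), with means of 3.80 at 10 pM and 4.33 at 3 pM, both near the floor.

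**Figure D2:**
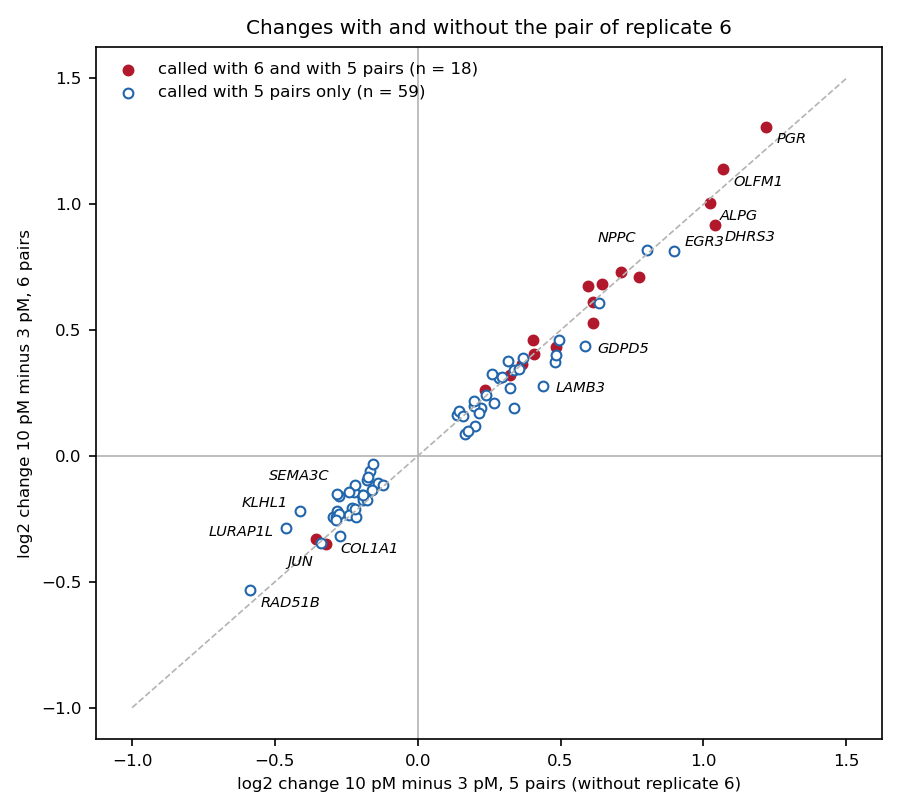
Log2 change from 10 pM minus 3 pM with 5 pairs (horizontal) and with 6 pairs (vertical) for the 77 genes called without replicate 6. Red points are the 18 genes called either way, open points the 59 called with 5 pairs only, and the dashed line marks equal values. GDPD5 and LAMB3 lie below the line, at 0.58 and 0.44 with 5 pairs and 0.44 and 0.28 with 6.

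Gene lists were read beside the whole table, in which 44.4% of genes were above 0, 55.6% below, and the median log2 change was −0.01. The called shares to read the counts against are 0.144% higher and 0.0181% lower with 6 pairs, and 0.406% and 0.289% with 5. Since the lists and their members were chosen with earlier results of these data known, the counts describe the lists and are not a test. Of 48 estrogen-responsive genes 34 were measured, 5 rose (PGR, OLFM1, MLPH, GREB1 and NRIP1), none fell, and the median was 0.02. Without replicate 6 there were 8 rises, the additions being EGR3, TGFA and SLC7A5, an amino acid transporter (0.18). EGR3 was under the floor on 6 of 6 arrays at 3 pM and 5 of 6 at 10 pM, so its rise is uncertain. The other 26 measured members of that list did not pass in either direction. XBP1, a transcription factor of the secretory pathway that estrogen induces in breast cells, was at 10.18 at 10 pM and 10.23 at 3 pM, and TPD52L1, a tumour protein D52 relative, was at 9.90 at 10 pM and 9.88 at 3 pM. Among the 17 measured estrogen receptors and coregulators NRIP1 rose, and the median was −0.02.

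The list of SRF, YAP and contractile genes leaned downward. Of 22 measured members 20 were below 0 and the median was −0.11. 1 fell with 6 pairs (CCN1) and 2 with 5 pairs (CCN1 and CCN2). Its brightest uncalled members, TPM1 (tropomyosin) and VCL (vinculin), had log2 changes of −0.11 ± 0.03 SE and −0.03 ± 0.03. All 7 measured keratins were below 0 with 6 pairs, with a median of −0.09, and without replicate 6 they were 6 below and 1 above 0 with a median of −0.03. None was called, KRT18 being at 11.64 at 10 pM and 11.66 at 3 pM. Among 15 collagens COL9A3 rose and COL1A1 fell, joined by COL12A1 (−0.18 ± 0.04) without replicate 6. COL1A1 is itself on the stromal list, whose summed level ranged from 642.5 to 809.8 at 10 pM and from 721.6 to 944.8 at 3 pM, and whose defining members DCN, LUM and PDGFRA were under the floor. The sum includes COL1A1, so it does not stand apart from the fall of that gene. All groups come from 1 epithelial line, and a part of stromal cells in the COL1A1 result was not tested.

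Growth factor, Notch, immediate early and p53 lists gave 0 calls with 6 pairs and some with 5. Of 10 measured IGF pathway genes 0 passed with 6 pairs and 2 fell with 5 (IGFBP5 and IGFBP3, −0.12 ± 0.03 SE). Of 22 TGF-beta pathway genes 0 passed with 6 pairs, while with 5 pairs THBS1, an activator of latent TGF-beta, rose (0.32 ± 0.06) and TGFB2, a ligand, fell (−0.28 ± 0.06). Of 11 EGF family genes TGFA rose and NRG1 fell with 5 pairs, and of 13 FGF pathway genes FGFR2 fell. The 13 Notch genes gave HES2 higher and JAG1 lower, and the 19 immediate early genes EGR3 higher and JUN lower. Among 24 p53 targets PLK2 (−0.18 ± 0.03) and TP53INP1 (−0.22 ± 0.05) fell with 5 pairs.

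Proliferation and housekeeping lists held no call with 6 or with 5 pairs. They were the mitosis genes (36 measured, median 0.01), DNA replication genes (42, median −0.01), G1 cyclins, kinases and inhibitors (21, median −0.03), MYC and ribosome biogenesis genes (29, median 0.02), unfolded protein response (27, median −0.01), heat shock proteins (21, median 0.02), hypoxia and glycolysis genes (32, median −0.03) and oxidative phosphorylation genes (37, median 0.00). TOP2A, the topoisomerase of dividing cells, was at 11.24 at 10 pM and 11.28 at 3 pM, and PCNA, the replication clamp, at 11.07 at 10 pM and 11.02 at 3 pM. HSPA5, the main chaperone of the endoplasmic reticulum, was at 11.69 in both groups. Steroid-converting enzymes (16 measured) and Wnt pathway genes (22) also had 0 calls, with AKR1C2, a ketosteroid reductase, at −0.17 ± 0.05 SE (adjusted p = 0.742).

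The step was then placed in the full range, from the 0 pM vehicle to 1000 pM. PGR averaged 4.02 ± 0.57 in vehicle, 4.14 ± 0.41 at 0.1 pM, 4.23 ± 0.44 at 0.3 pM, 4.62 ± 0.52 at 1 pM, 5.63 ± 0.36 at 3 pM, 6.94 ± 0.24 at 10 pM, 8.83 ± 0.06 at 100 pM and 9.15 ± 0.19 at 1000 pM (log2, SD). Its step from 3 to 10 pM was 25.5% of the log2 distance between vehicle and 1000 pM. The vehicle mean of PGR lay near the floor of 4, so this share is uncertain as well. For the 18 called genes this share ran from 23.3% to 53.2% with a median of 26.6%, and they had covered a median of 21.9% of that distance at 3 pM and 51.1% at 10 pM. COL1A1 had reached 88% at 10 pM, against 42.6% for G0S2. ALPG, DHRS3 and SLCO2A1 were at or under the floor of 4 on all 6 vehicle arrays, so the start of their distance was not measured and their shares, which enter these medians, are uncertain. Leaving out the 4 arrays of the series with a high beta-actin difference, an alternative added after seeing the data, changed the median share to 26.9% and the range to 22.6% to 68.9%, the upper end again being COL1A1. The genes were called in this step, so these shares describe them and are not a test.

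**Figure D3:**
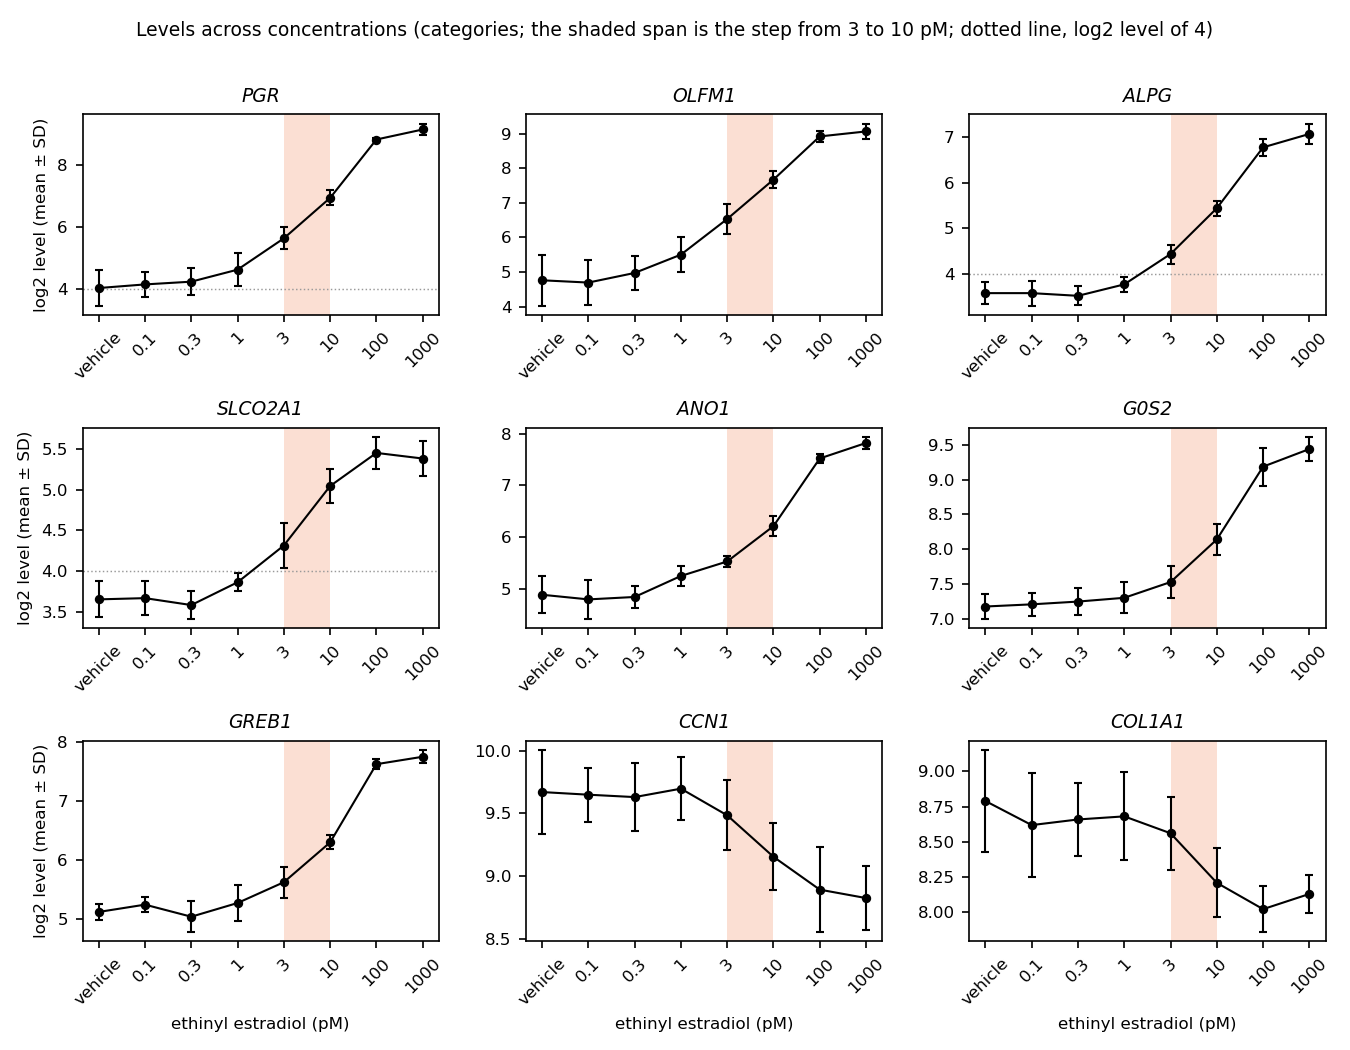
Mean log2 level with SD (6 arrays, 7 at 0.3 pM) of 9 called genes in vehicle and at 7 concentrations, spaced as categories, with the step from 3 to 10 pM shaded and a dotted line at a level of 4. The mean of SLCO2A1 is 5.04 at 10 pM and 5.45 at 100 pM, and that of PGR 6.94 and 8.83.

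Differences between consecutive steps were tested in 1 fit of the 24 arrays at 1, 3, 10 and 100 pM with the replicate block. Neighbouring steps share the arrays of a concentration, and the step from 10 to 100 pM spans a larger ratio of concentrations. Against the step from 1 to 3 pM, 0 genes differed (limma, adjusted p), and 526 genes (4.75%) had an unadjusted p under 0.05. Without replicate 6 the numbers were 0 and 402. PGR moved by 1.02 ± 0.12 SE from 1 to 3 pM and 1.31 ± 0.12 from 3 to 10 pM, a difference of 0.29 ± 0.22 (adjusted p = 0.867). The lowest adjusted p was that of G0S2 (0.45), which moved by 0.23 ± 0.04 and then 0.61 ± 0.04. NRIP1 moved by 0.08 ± 0.06 and then 0.46 ± 0.06, with a difference of 0.38 ± 0.11 (adjusted p = 0.867).

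Against the step from 10 to 100 pM, 5 genes differed (0.0451%). SMR3B, which encodes a secreted submaxillary gland protein, changed by 0.03 ± 0.05 SE from 3 to 10 pM and by −0.79 ± 0.05 from 10 to 100 pM, a difference of 0.81 ± 0.09 (adjusted p = 3.85e-05). Its mean levels were 8.38 at 3 pM, 8.41 at 10 pM and 7.62 at 100 pM. SCGB2A1 changed by 0.35 ± 0.08 and then 1.24 ± 0.08, a difference of −0.90 ± 0.14 (adjusted p = 0.00395). PLXDC2, a transmembrane plexin-domain protein, differed by −0.55 ± 0.10, SLC6A6, the taurine transporter, by −0.52 ± 0.09, and G0S2 by −0.43 ± 0.08. All 5 were found again among 21 genes (0.19%, 3 higher and 18 lower) without replicate 6, where ANO1 (−0.69 ± 0.14, adjusted p = 0.0237) and GREB1 (−0.72 ± 0.14, adjusted p = 0.0218) were also called. Without the block 0 genes differed, and leaving out replicates 1 to 5 in turn left 1 to 3 genes.

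**Figure D4:**
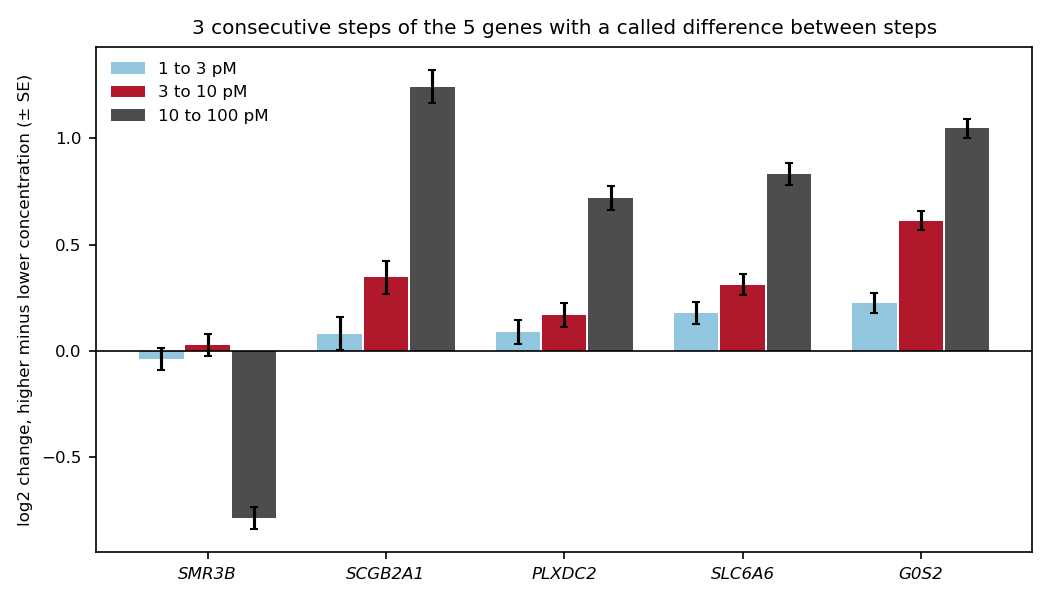
Log2 change with SE over the steps from 1 to 3, 3 to 10 and 10 to 100 pM for the 5 genes whose step from 3 to 10 pM differed from that from 10 to 100 pM. Bars start at 0. SMR3B has 0.03 in the middle step and −0.79 in the last, and SCGB2A1 has 0.35 and 1.24.

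Genes called between 1000 pM and vehicle were taken from those 12 arrays alone, none of which enters the step. Of 153 such genes that were higher at 1000 pM (1.38%), 140 (91.5%) were also higher at 10 pM than at 3 pM, against 44.4% of all tested genes. Among the 153, 16 were called higher (10.5%), against 0.144% of all. Of 155 that were lower at 1000 pM (1.4%), 146 (94.2%) were lower at 10 pM than at 3 pM, against 55.6% of all. Among the 155, 2 were called lower (1.29%), against 0.0181% of all. The median step was 0.15 in the 153, −0.13 in the 155 and −0.01 over all genes. Every one of the 18 called genes thus belonged to this set in its own direction. Without replicate 6 the counts were 138 of 153 higher and 147 of 155 lower, against 44.7% and 55.3% of all tested genes. Among them 38 were called higher and 15 lower, against 0.406% and 0.289% of all. The 38 include EGR3 and NPPC, whose levels in the step were mostly under the floor. Of the 59 added genes, 24 were outside the set. These 24 included RAD51B, whose change at 1000 pM was −0.08 (adjusted p = 0.88), KLHL1 (−0.37, adjusted p = 0.764), CDH1, E-cadherin (−0.11, adjusted p = 0.606), and FGFR2 (−0.69, adjusted p = 0.195). With replicates 1 to 5 left out in turn, 6 to 10 genes of the set were called. Vehicle replicate 5 and 1000 pM replicate 6 also had a high beta-actin difference (4.62 and 2.67). Without them, 3 pM replicate 6 and the block, 17 genes were called in both comparisons. The set that left the 24 genes outside was called with these 2 arrays kept in. How many of the 24 stay outside without them was not examined, so a missing call there is not an absence of change.

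**Figure D5:**
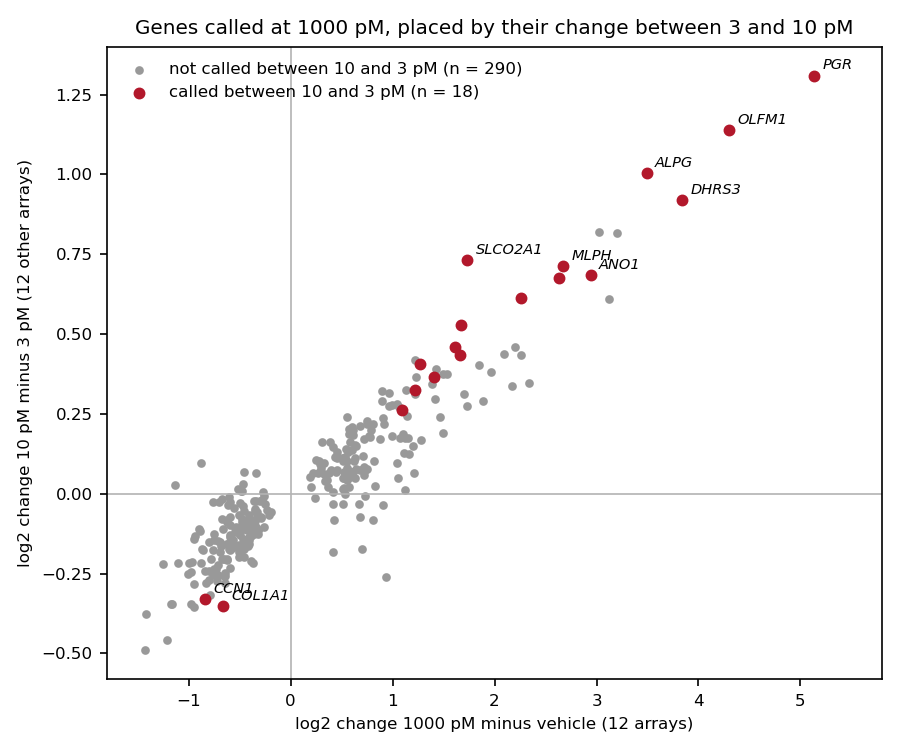
Each point is 1 of the 308 genes called between 1000 pM and vehicle, placed by that log2 change (horizontal) and by its log2 change from 10 pM minus 3 pM on 12 other arrays (vertical). Red points are the 18 genes called in the step. PGR lies farthest out, at 5.13 and 1.31.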

How the data were processed

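Per the labels' protocols, total RNA from Ishikawa cells was amplified, labelled with biotin and hybridized to arrays, 1 per sample. The deposited values are log2 levels per probe set, made by the authors with GCRMA and Partek per the submitters' processing notes, which give no versions; background correction, normalization and summarization were theirs. GCRMA compresses dim signals, so changes near a log2 level of 4 are uncertain. Precision is set by the number of arrays.

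All 49 columns were used (0 left out). Of 54715 probe sets, 1 symbol was annotated for 40920, several for 864 and no symbol for 12931. A probe set entered if it exceeded 4 on at least 6 arrays (22721 did), and the one with the highest mean stood for its gene, which left 11075 genes. The main fit was limma 3.58.1 in R 4.3.3 on the 12 arrays with the replicate number as a block and an intensity trend in the prior, adjusted by Benjamini-Hochberg over all genes (threshold 0.05). Steps were compared in 1 such fit of 24 arrays. Deviations from the group means correlated between equally numbered 10 and 3 pM arrays by 0.22 to 0.52, over 0.1 in all 6 pairs, against −0.43 to 0.23 between other numbers. The ranges overlap, and pair 1 had 0.22 against 0.20 for its best other number. Deviations from a group mean sum to 0, which lowers the correlations between other numbers, so the contrast is partly built in. No batch is named in the labels, and the pairing was judged from these values. No array columns were identical (0). Where all arrays of a group lay at or under 4, no fold was given unless a bound above 1 could be set.

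Named genes were the 14 largest rises and 12 largest falls past the threshold with all pairs of 1 sign, ESR1, ESR2, PGR, GREB1, ALPP and ALPG, up to 4 called and 2 bright uncalled members of each list, and the largest called differences between steps. The same rule was applied without replicate 6. SLC7A5, EPB41L2 and DEPTOR are named beyond it. The 41 lists (938 genes, 269 of them without a tested probe set), the members and the tests were chosen with earlier results of these data known. Arrays with a high beta-actin difference were the 4 lying more than 4 median absolute deviations above the median. Alternatives changed the block, filter, prior, normalization, weighting, probe sets, threshold and arrays. Promoter windows are RefSeq's. Figures used Python 3.11.15, pandas 2.3.3 and matplotlib 3.10.9.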

Additional observations from a re-analysis of the deposited data

Results flagged for a closer look

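Within each group of 6 arrays, the 69 named genes were checked for an array whose gap to its nearest neighbour exceeded Dixon's critical share of the group's range, which chance gives in about 1 of 20 groups. Of 138 groups 13 were marked, and 9 of these were 3 pM replicate 6, the array with the high beta-actin difference. Among the marked genes, GDPD5, LAMB3, HES2, IGFBP5 and COL12A1 were named because they passed only without replicate 6. That choice of genes favours marks on this array, so their number cannot be set against the chance rate. On that array NRIP1 stood apart as the lowest (7.28, next 7.75, gap share 0.756), as did XBP1 (9.83, next 10.26, 0.793), MYO5C (9.24, next 9.58, 0.727), PCNA (10.79, next 11.03, 0.729) and COL12A1 (8.61, next 9.16, 0.731). It was the highest for GDPD5 (6.32, next 5.60, 0.662), IGFBP5 (9.39, next 8.91, 0.86), HES2 (7.80, next 7.46, 0.725) and LAMB3 (7.53, next 6.46, 0.793). With that array, PCNA, XBP1 and MYO5C had no call, and without its pair they had none either.

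COL9A3 was lowest in replicate 4 in both groups, at 5.46 at 10 pM (next 6.13, gap share 0.747) and 5.05 at 3 pM (next 5.69, 0.684), and its pair difference there was within the range of the others. JUN was lowest at 10 pM in replicate 2 (6.36, next 6.68, 0.648). EPCAM, an epithelial marker, was highest at 3 pM in replicate 5 (11.63, next 11.43, 0.781).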

How the results depend on the processing

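All 18 called genes kept their direction under the 21 alternatives in which genes were refitted, and no called value reversed. With 1 sign in all pairs, leaving out a replicate number or changing the block or prior could not reverse them. Those fits are therefore no test of their direction. Uncalled values among the 129 genes followed changed sign 110 times. The count of 18 depended on the pairing and on single replicates. Leaving out 1 replicate number at a time gave 6 to 77 genes: 7, 8, 6, 10 and 6 without replicates 1, 2, 3, 4 and 5, and 77 without replicate 6. PGR, OLFM1, ALPG, SLCO2A1, ANO1 and G0S2 passed in all 6 of these fits, and G0S2 missed the threshold without the block (adjusted p = 0.0504). Without the replicate block 11 genes passed, of which 9 were among the 18. The block as a random effect gave 17, all 49 arrays without a block 17, and 11 arrays without 3 pM replicate 6 and without a block 17 (13 shared). The count was 45 with the 24 arrays of 4 concentrations, 87 with the beta-actin difference as a covariate and 72 with array weights, each including the 18. It was 8 without the intensity trend, 10 with the mean of all entering probe sets, 7 at a threshold of 0.01 and 9 with at least 1.5-fold. The threshold of 0.01 and the fold minimum are stricter rules on the same fit, and the cause of the other shifts was not tested. CCN1 and COL1A1 lost their call under 11 alternatives and PEG10, COL9A3, NRTN and DEPTOR under 10, the fit with no block among them in each case.

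The count that differed from the step from 10 to 100 pM was 5, but 0 without the block, 0 without 3 pM replicate 6 and without a block, and 1 to 21 when 1 replicate number was left out. The count that differed from the step from 1 to 3 pM was 0 under all 8 alternatives. Of genes called at 1000 pM, 18 were called in the step, 11 without the block and 6 to 53 with 1 replicate number left out. The median share of the vehicle to 1000 pM range was 26.9% without the 4 arrays of high beta-actin difference, against 26.6%. Signal near the floor limits DHRS3, RAD51B, EGR3 and NPPC, and at 3 pM also ALPG and SLCO2A1. Other filters gave 18 to 20 genes, a robust prior 18, quantile normalization 21 and centring on the median 19.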

Other observations

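Several lists held 1 call with 6 pairs while their other measured members did not pass. Over all tested genes 0.163% were called. As these lists were chosen with earlier results of these data known, a call in each is no result about the family. Among 11 retinoid genes DHRS3 rose, whereas RDH10 and RDH11, retinol dehydrogenases, had log2 changes of 0.12 ± 0.08 and 0.02 ± 0.05 SE. Among 13 lipid droplet genes G0S2 rose, and CPT1A, the carnitine transferase of fatty acid oxidation, was at 9.21 at 10 pM and 9.22 at 3 pM. ANO1 was the called gene of 12 ion channels and carbonic anhydrases, in which KCNE3, a potassium channel subunit, changed by 0.12 ± 0.05 (adjusted p = 0.982). MLPH was the called gene of 12 vesicle transport genes, whose myosin V members MYO5B and MYO5C changed by −0.02 ± 0.05 and 0.08 ± 0.06. CAPS was the called gene of 4 measured ciliated cell genes, and RFX3, a transcription factor of cilia, changed by 0.05 ± 0.07. The medians were 0.02 for the retinoid list, −0.01 for lipid droplets, 0.07 for channels, −0.01 for vesicle transport and 0.01 for the ciliated list. ALPG was the measured member of 4 alkaline phosphatases.

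Other lists gained a call only without replicate 6. Among 15 integrins and laminins ITGA6, the integrin alpha-6 chain, rose by 0.28 ± 0.06 SE beside LAMB3, while the median with 6 pairs was −0.06. Among 25 junction genes and 15 epithelial markers CDH1 fell by 0.14 on the log2 scale (SE 0.03, adjusted p = 0.0381), with means of 10.26 at 10 pM and 10.37 at 3 pM over 6 arrays each. Of 26 cholesterol and fatty acid synthesis genes IDI1, an isomerase of isoprenoid synthesis, rose by 0.14 ± 0.03. The 9 surface peptidases gave ANPEP and the 18 secretory endometrium genes SCGB2A1. The 17 interferon and antigen presentation genes, 15 NRF2 genes, 7 Mullerian lineage factors and 12 reference genes held 0 calls with 6 or 5 pairs. Among reference genes GAPDH changed by 0.01 ± 0.02 and PPIA by 0.02 ± 0.03.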
